A study of Mus musculus with 2 samples.

Results

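The subunits of Polycomb repressive complex 1 (PRC1) were examined in the RNA-seq of mouse ES cells and mouse E10.5 forebrain, to compare which paralogs of the complex each sample used. The 9 genes *Cbx2*, *Cbx6*, *Cbx7*, *Cbx8*, *Bmi1*, *Pcgf2*, *Pcgf6*, *Ring1* and *Rnf2* were chosen by name as subunits of the complex. All 9 were found by symbol among the 29311 genes of the tables, each under 1 identifier, and all 9 were above 0 in both samples. The ES cell library came from wild-type cells of the E14 strain, cultured without feeders in serum and LIF. The forebrain library came from wild-type B6CBAF1/J embryos at E10.5, and the sources used here describe its RNA both as that of single embryos and as that of a counted number of cells. Each cell type had 1 library, so that differences have no replicate check, no p-value is given, and strain, culture and RNA reagent cannot be told apart from cell type.

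PRC1 is a chromatin complex that attaches ubiquitin to histone H2A and helps to keep developmental genes such as the *Hox* genes silent. Every PRC1 pairs a catalytic RING protein, RING1 or RNF2 (RING1B), with a single PCGF protein, and the PCGF partner sets the type of complex. Canonical PRC1 contains PCGF2 (MEL18) or BMI1 (PCGF4) together with a CBX protein, whose chromodomain binds the H3K27me3 mark made by PRC2, and a polyhomeotic protein. Variant PRC1 contains RYBP or YAF2 instead of CBX, and PCGF6 is the partner in the variant complex with L3MBTL2, MGA, MAX and E2F6.

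The labels of both samples were in accordance with their markers. All 8 ES cell markers were at least 2-fold higher in ES cells, among them *Pou5f1* (11243.84 against 42.9) and *Nanog* (4968.03 against 9.13). Of 8 markers of forebrain neuroepithelium, 7 were listed and at least 2-fold higher in E10.5 forebrain. *Lhx2* was listed at 0 in ES cells and at 876.64 in forebrain. The other marker, *Sox1*, was not listed in either sample, and no listed gene was at 0 in both. Markers of other tissues were mixed. The 4 markers of primitive erythroid cells summed to an RPKM of 673751.31 in forebrain and 275.74 in ES cells. The 4 mesenchyme markers summed to 4265.48 and 37.13, and 3 of 4 endothelial markers were at least 2-fold higher in forebrain. Of 5 neuron markers, 4 were higher in forebrain and *Stmn2* in ES cells. The 4 surface ectoderm markers summed to 1861.2 in ES cells and 545.48 in forebrain, but *Epcam* alone had 1685.28 and 205.98. It was the only 1 of them at least 2-fold higher in ES cells. In forebrain 2 were so, *Krt18* (67.66 in ES cells and 190.07 in forebrain) and *Trp63* (0.15 and 20.74). Of 5 markers of differentiating ES cells, 2 were at least 2-fold higher in ES cells, *T* (1112.09 against 2.66) and *Gata4* (3.12 against 0.52). *Gata4* rested on only 10 and 2 reads. The other 3, *Eomes*, *Gata6* and *Sox17*, were at least 2-fold higher in forebrain. In ES cells, *Gata6* and *Sox17* rested on only 4 and 8 reads. The part of these cells in the values below was not tested. In bulk RNA, fewer cells that express a gene and less RNA per cell cannot be told apart.

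RPKM is used here as deposited, a value per kb of exon. Despite its name, it is not divided by the depth of the library, as RPKM usually is. Values times exonic kb summed to 52231969 in ES cells and 48968969 in forebrain. Usual RPKM of the same reads would be far lower, so levels cannot be compared with RPKM of other data. From the spacing of low values, a single read of the ES cell library was worth 1.2209 divided by the exonic kb of its gene, and a forebrain read 0.8191. The inferred reads on genes came to 42782447 for ES cells and to 59784828 for forebrain. The 9 genes rested on 41 to 5518 reads in ES cells and 107 to 7991 in forebrain. Ranges in parentheses are exact Poisson 95% intervals of the rounded inferred reads, or exact conditional 95% intervals for a ratio. They cover counting error only. Before rounding, reads were not whole for *Cbx2* (962.51), *Cbx6* (2126.51) and *Bmi1* (189.15) in ES cells. Nor were they for *Pcgf2* (667.58 and 980.21), *Pcgf6* (2444.7 and 1543.36) and *Rnf2* (5518.47 and 7990.52) in ES cells and forebrain. For these values the intervals are approximate.

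In ES cells, *Rnf2* had the highest RPKM of the 9 genes, followed by *Cbx7*, *Pcgf6*, *Cbx6*, *Cbx2*, *Pcgf2*, *Ring1*, *Bmi1* and *Cbx8*. *Ring1* and *Bmi1* did not differ beyond their counting intervals. In forebrain the order was *Rnf2*, *Cbx2*, *Bmi1*, *Pcgf6*, *Cbx6*, *Pcgf2*, *Ring1*, *Cbx8* and *Cbx7*, in which *Pcgf2* overlapped with *Ring1* and *Ring1* with *Cbx8*. The catalytic subunit *Rnf2* stood first in both samples, whereas *Cbx7* moved from the second to the last place. The plot of RPKM by gene and sample shows both orders.

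**Figure D1:**
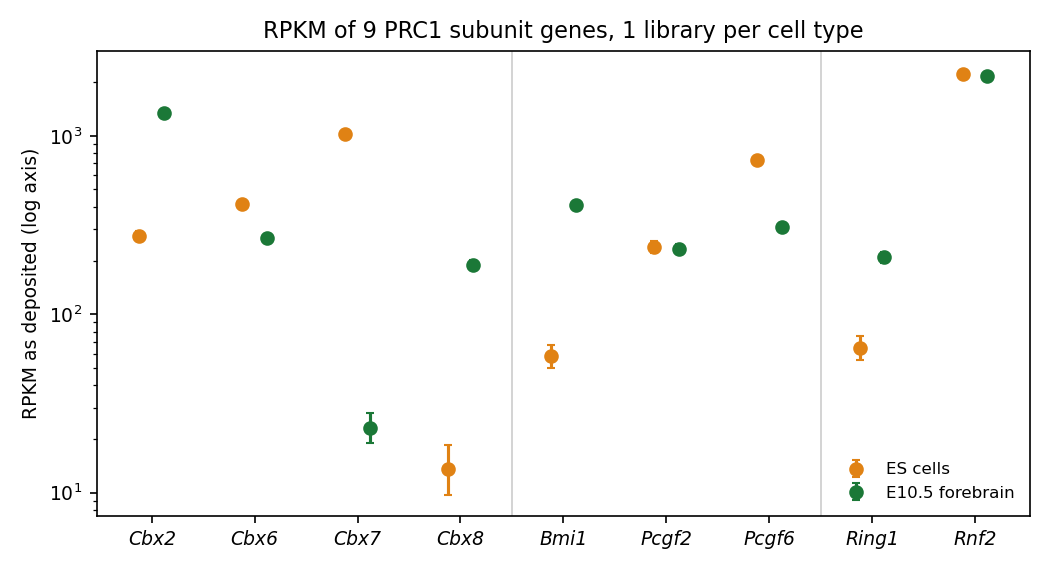
RPKM as deposited (log axis) of the 9 PRC1 subunit genes in ES cells (orange) and E10.5 forebrain (green), 1 library each. Bars are exact Poisson 95% intervals of the rounded inferred reads, and are smaller than the points where not visible. *Cbx7* lies at 1026.62 in ES cells and 23.12 in forebrain, *Cbx2*, *Cbx8*, *Bmi1* and *Ring1* lie higher in forebrain, and the points of *Pcgf2* and *Rnf2* nearly coincide.

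The Cbx genes, which encode the subunits that read H3K27me3, showed the widest differences. *Cbx7* (ENSMUSG00000053411, chr15:79746237-79801549, NCBIM37, minus strand) had an RPKM of 1026.62 in ES cells (991 to 1060, 3187 reads). In E10.5 forebrain it had 23.12 (19 to 27.9, 107 reads), so that it was 44.4-fold higher in ES cells (36.6 to 54.3). Of 19620 listed protein-coding genes, 258 had a larger ratio in this direction. By level, *Cbx7* was at percentile 86.7 of protein-coding genes in ES cells and at percentile 33.5 in forebrain.

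*Cbx2* (ENSMUSG00000025577, chr11:118884276-118892584, plus strand) differed in the opposite direction. Its RPKM was 276.04 in ES cells (259 to 294, 963 reads) and 1334.36 in forebrain (1300 to 1370, 6935 reads), 4.83-fold higher in forebrain (4.52 to 5.17). *Cbx8* (ENSMUSG00000025578, chr11:118897619-118902283, minus strand) also was the higher in forebrain. It had 13.62 in ES cells (9.77 to 18.5) from only 41 reads, and 188.56 in forebrain (176 to 202, 846 reads), a 13.8-fold difference (10.1 to 19.4). *Cbx8* had the lowest value of the 9 genes in ES cells, and the ratio of largest size toward forebrain.

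*Cbx6* (ENSMUSG00000089715, chr15:79654326-79665118, minus strand) stayed between these extremes. Its RPKM was 412.75 in ES cells (395 to 431) and 266.04 in forebrain (255 to 278), 1.55-fold higher in ES cells (1.46 to 1.65) and short of a 2-fold difference. Division by the median of protein-coding genes took its log2 ratio from 0.63 to 1.26, past 2-fold. Its exons share 1175 bp on the same strand with *Npcd* (124.76 in ES cells and 88.64 in forebrain), and 18.3% of its 50-base words occur in *Npcd* transcripts. Reads of the pair cannot be told apart there.

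*Cbx7*, *Cbx6* and *Cbx8* begin with closely related coding sequences for the N-terminal chromodomain, and these are shown because they set the paralogs apart at the start of the protein. The stretches of 147 bases were read from the annotated transcripts of NCBIM37 and lie in exons 1 to 3 of each gene. They are at chr15:79753934-79762946 for *Cbx7*, chr15:79664164-79664641 for *Cbx6* and chr11:118901440-118902164 for *Cbx8*, introns included. The stretch starts at coding base 1, and capitals mark the 94 positions at which all 3 genes carry the same base.

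Cbx7: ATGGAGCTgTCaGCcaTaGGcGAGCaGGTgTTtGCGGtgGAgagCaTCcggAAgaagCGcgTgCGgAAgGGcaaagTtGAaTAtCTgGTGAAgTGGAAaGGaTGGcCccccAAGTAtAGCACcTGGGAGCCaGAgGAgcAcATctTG

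Cbx6: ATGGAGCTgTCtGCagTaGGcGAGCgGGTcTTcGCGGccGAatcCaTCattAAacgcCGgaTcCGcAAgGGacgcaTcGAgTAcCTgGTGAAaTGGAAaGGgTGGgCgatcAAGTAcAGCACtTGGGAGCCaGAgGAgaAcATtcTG

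Cbx8: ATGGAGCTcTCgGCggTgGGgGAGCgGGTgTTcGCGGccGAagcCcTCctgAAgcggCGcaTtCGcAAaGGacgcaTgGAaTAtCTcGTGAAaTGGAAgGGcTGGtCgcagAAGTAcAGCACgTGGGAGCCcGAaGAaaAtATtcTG

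Over these bases, *Cbx6* and *Cbx8* were 79.6% identical, the closest pair of the 3. *Cbx7* was 72.1% identical to *Cbx6* and 70.1% to *Cbx8*. The closest pair of these 3 lay in opposite directions, with *Cbx6* 1.55-fold higher in ES cells, short of 2-fold, and *Cbx8* 13.8-fold higher in forebrain. *Cbx2* was not part of this comparison. No word of 50 bases of *Cbx2*, *Cbx7* or *Cbx8* transcripts occurred in a protein-coding transcript of another gene, and no other copy of them was found in the genome.

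The share of each paralog within a sample does not depend on the scaling between samples. In ES cells, *Cbx7* made up 59.4% (counting SD 0.61) of the summed RPKM of the 4 Cbx genes, *Cbx6* 23.9% and *Cbx2* 16%, with 0.788% for *Cbx8*. In forebrain, *Cbx2* made up 73.6% (counting SD 0.43), *Cbx6* 14.7% and *Cbx8* 10.4%, with 1.28% for *Cbx7*. *Cbx7* exceeded *Cbx2* 3.72-fold in ES cells (3.46 to 4), whereas *Cbx2* exceeded *Cbx7* 57.7-fold in forebrain (47.7 to 70.5). The leading Cbx gene thus differed between the samples, and *Cbx6* was second in both.

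*Cbx2* and *Cbx8* adjoin each other on chromosome 11, with 5.03 kb between them, and both were higher in forebrain. *Cbx6* and *Cbx7* lie 81.1 kb apart on chromosome 15, and both were higher in ES cells, *Cbx6* by less than 2-fold. Whether position bears on these directions was not tested.

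The 4 Cbx genes summed to an RPKM of 1729.03 in ES cells and 1812.08 in forebrain, a log2 ratio of -0.07. The 3 Pcgf genes summed to 1025.54 and 953.09 (log2 ratio 0.11), and *Ring1* and *Rnf2* to 2289.77 and 2369.84 (-0.05). The direction of these differences turned with the scaling, between -0.34 and 0.57 for Cbx, -0.17 and 0.74 for Pcgf, and -0.32 and 0.58 for the Ring pair.

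**Figure D2:**
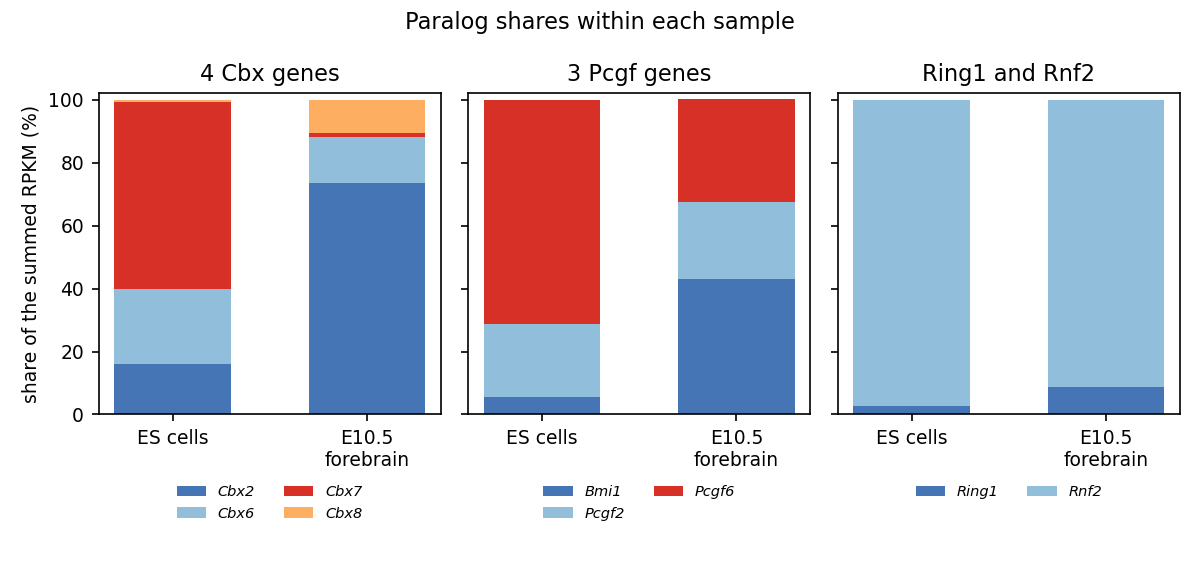
Share of each paralog (%) in the summed RPKM of the 4 Cbx genes, of the 3 Pcgf genes and of *Ring1* and *Rnf2*, stacked for each of the 2 samples. *Cbx7* fills 59.4% of the Cbx bar in ES cells and 1.28% in forebrain, *Pcgf6* goes from 71.2% to 32.5% of the Pcgf bar, and *Rnf2* fills 97.2% and 91.2% of the Ring bars.

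Among the Pcgf genes, which set the type of PRC1, *Bmi1* and *Pcgf6* differed in opposite directions. *Bmi1* (ENSMUSG00000026739, chr2:18598645-18608256, plus strand) had an RPKM of 58.11 in ES cells (50.1 to 67, 189 reads). In forebrain it had 410.37 (393 to 429, 1991 reads), 7.06-fold higher (6.09 to 8.25). *Pcgf6* (ENSMUSG00000025050, chr19:47108109-47125380, minus strand), the partner specific to the variant complex, had 730.64 in ES cells (702 to 760) and 309.46 in forebrain (294 to 325), 2.36-fold higher in ES cells (2.22 to 2.52). Division of each sample by its summed RPKM took this log2 ratio from 1.24 to 0.96, short of a 2-fold difference.

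*Pcgf2* (ENSMUSG00000018537, chr11:97550137-97561811, minus strand), which with *Bmi1* serves canonical PRC1, was nearly equal. It had 236.79 in ES cells (219 to 256, 668 reads) and 233.26 in forebrain (219 to 248, 980 reads), a ratio of 1.02 (0.919 to 1.12), and its direction turned with the scaling (log2 ratio -0.25 to 0.65). *Cisd3*, on the other strand at a gap of 201 bp, was 7.26-fold higher in ES cells. The libraries were strand-specific, but whether strand was used in counting is not given in the sources used here.

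The value of *Bmi1* is uncertain, because a stretch of chromosome X (chrX:146655263-146658127, NCBIM37) is 95.7% identical to 2889 bases of its transcript. The pseudogene *Gm5946* within this stretch is listed with 217.5 in ES cells and 1256.72 in forebrain, from 173 and 1491 reads, and 14.6% of its 50-base words are also words of *Bmi1*. Whether these reads belong to *Bmi1* or to its copy was not tested. With them added, *Bmi1* would have 111.31 in ES cells and 717.75 in forebrain, 6.45-fold higher in forebrain. The direction is the same either way.

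Of the summed RPKM of the 3 Pcgf genes, *Pcgf6* made up 71.2% in ES cells (counting SD 0.81), *Pcgf2* 23.1% and *Bmi1* 5.67%. In forebrain, *Bmi1* made up 43.1% (counting SD 0.74), *Pcgf6* 32.5% and *Pcgf2* 24.5%. With the reads of *Gm5946* counted for *Bmi1*, its share was 10.3% in ES cells and 56.9% in forebrain. Between the canonical partners, *Pcgf2* exceeded *Bmi1* 4.07-fold in ES cells (3.47 to 4.82), whereas *Bmi1* exceeded *Pcgf2* 1.76-fold in forebrain (1.63 to 1.9). With the reads of *Gm5946* counted for *Bmi1*, these ratios were 2.13 and 3.08.

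The other Pcgf genes, *Pcgf1*, *Pcgf3* and *Pcgf5*, encode partners of variant complexes and are not among the 9. *Pcgf3* had 348.39 in ES cells and 566.44 in forebrain, *Pcgf1* had 90.51 and 121.92, and *Pcgf5* had 175.42 and 145.09. None of them was 2-fold apart. Over all 6 Pcgf genes, *Pcgf6* led in ES cells with 44.6%, followed by *Pcgf3* with 21.2%. In forebrain *Pcgf3* led with 31.7%, followed by *Bmi1* with 23%. With the reads of *Gm5946* counted for it, *Bmi1* (717.75) would exceed *Pcgf3* in forebrain. The 6 genes summed to 1639.86 in ES cells and 1786.54 in forebrain (log2 ratio -0.12, and -0.4 to 0.51 over the scalings).

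The catalytic subunits showed the least change in paralog order. *Rnf2* (ENSMUSG00000026484, chr1:153316536-153347953, minus strand), which encodes RING1B, had 2225.02 in ES cells (2170 to 2280, 5518 reads) and 2161.47 in forebrain (2110 to 2210, 7991 reads). The ratio was 1.03 (0.994 to 1.07), and its direction turned with the scaling (log2 ratio -0.23 to 0.67). *Rnf2* was at percentile 94.5 of protein-coding genes in ES cells and 95.4 in forebrain.

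*Ring1* (ENSMUSG00000024325, chr17:34157737-34161625, minus strand), the other catalytic paralog, had 64.75 in ES cells (55.4 to 75.2, 172 reads) and 208.37 in forebrain (194 to 223, 825 reads). It was 3.22-fold higher in forebrain (2.73 to 3.82). *Rnf2* nevertheless remained the main catalytic gene, at 34.4 times the RPKM of *Ring1* in ES cells (29.5 to 40.2) and 10.4 times in forebrain (9.66 to 11.2). On the same strand as *Ring1*, at a gap of 1352 bp, *H2-Ke6* was 4.02-fold higher in forebrain. *Gm20427*, on that strand at a gap of 1353 bp, was only 1.13-fold higher in forebrain. The *Mir219-1* entries on that strand, at gaps of 285 and 302 bp, were 1.48-fold and 4.16-fold higher in forebrain. *Ring1* held 2.83% of the pair in ES cells and 8.79% in forebrain.

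Counted on log2(RPKM + 1), 2 of the 9 genes (*Cbx7* and *Pcgf6*) were at least 2-fold higher in ES cells and 4 (*Cbx2*, *Cbx8*, *Bmi1* and *Ring1*) in forebrain. Of all listed genes, 23.3% were at least 2-fold higher in ES cells and 25.8% in forebrain. Of protein-coding genes, 18.9% were so in ES cells and 27.9% in forebrain. The count in ES cells is near this background, and the count in forebrain exceeds it by too few genes to read as a result about PRC1. The median log2 ratio of the 9 genes was 0.02, beside -0.17 for protein-coding genes. The signs of the 7 genes other than *Pcgf2* and *Rnf2* were the same under every pseudocount and scaling tried. The scalings shifted every log2 ratio by -0.27 to 0.63, before the pseudocount, and took the median of all genes from -0.01 to between -0.26 and 0.54.

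Other genes of PRC1 and related genes were described by lists. *Sfmbt1* and *Sfmbt2* stand in these lists beside the Scm genes and are not taken here as known subunits of PRC1. Polyhomeotic proteins are canonical subunits that link complexes to each other. *Phc1* had 724.21 in ES cells and 311.12 in forebrain, 2.33-fold higher in ES cells, whereas *Phc2* had 121.83 and 874.78, 7.18-fold higher in forebrain (6.64 to 7.76). *Phc1* exceeded *Phc2* 5.94-fold in ES cells and *Phc2* exceeded *Phc1* 2.81-fold in forebrain, so that the leading polyhomeotic gene differed as well. *Phc3* had 45.5 and 75.71 and was not 2-fold apart.

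Among the 4 genes of the Scm and Sfmbt type, *Scmh1* (10.56 in ES cells and 109.15 in forebrain), *Scml2* (11.65 and 33.12) and *Sfmbt1* (111.77 and 262.37) were at least 2-fold higher in forebrain. *Sfmbt2* had 580.14 in ES cells and 28.13 in forebrain, 20.6-fold higher in ES cells. Over the 7 polyhomeotic and Scm genes, 2 were at least 2-fold higher in ES cells and 4 in forebrain, with a median log2 ratio of -1.22. Of all protein-coding genes, 18.9% were so in ES cells and 27.9% in forebrain, with a median of -0.17.

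Of 23 genes of variant complexes, 3 were at least 2-fold higher in ES cells and 6 in forebrain, beside 18.9% and 27.9% of protein-coding genes. The other 14 were within 2-fold, and the median log2 ratio of the list was -0.17, as for protein-coding genes. Differences named next are those within this list. The largest difference toward ES cells was that of *L3mbtl2*, a chromatin-binding partner of PCGF6, with 1905.54 in ES cells and 460.52 in forebrain, 4.14-fold. *Mga* (1359.13 and 803.52) and *Max* (553.78 and 346.63), which encode the DNA-binding pair of the same complex, were higher in ES cells by less than 2-fold. *E2f6*, its other DNA-binding gene, differed in the other direction, with 293.53 and 787.05. The largest difference toward forebrain was that of *Auts2*, a partner of variant complexes with PCGF3 or PCGF5, with 16.11 and 104.98, 6.52-fold.

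*Rybp* and *Yaf2*, which take the place of CBX in variant PRC1, also formed an opposed pair. *Rybp* had 404.17 in ES cells and 221.28 in forebrain, 1.83-fold higher in ES cells, and *Yaf2* had 185.12 and 701.67, 3.79-fold higher in forebrain (3.34 to 4.32). The plot of ratios by list sets the 9 genes beside these groups.

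**Figure D3:**
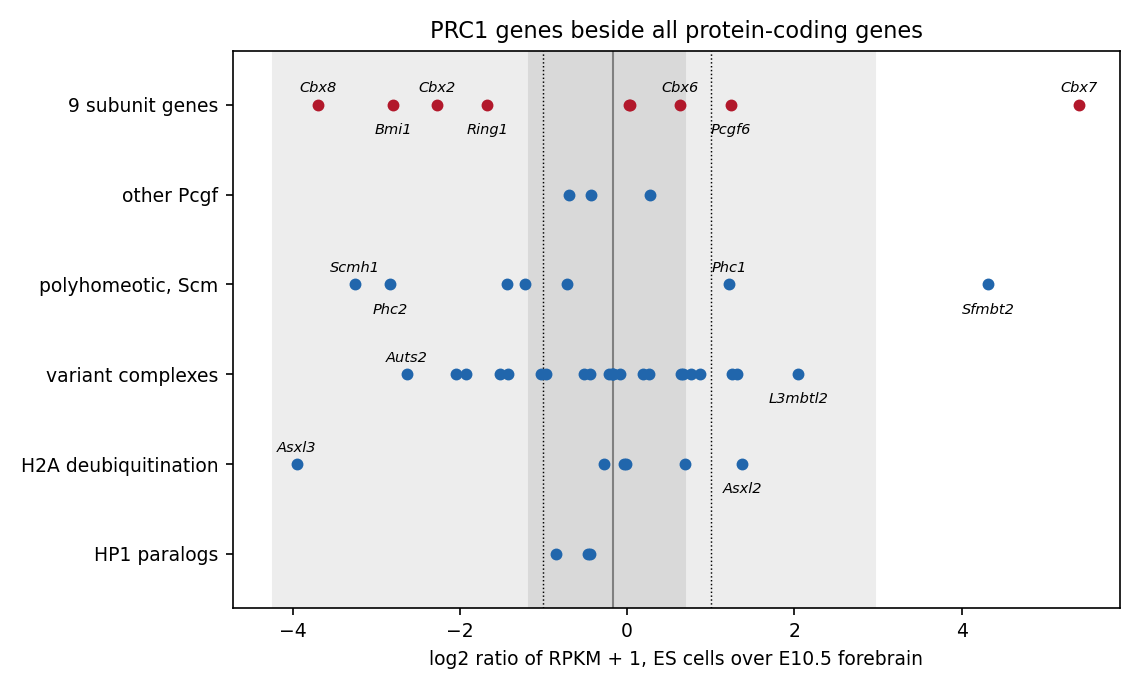
Log2 ratio of RPKM + 1, ES cells over E10.5 forebrain, for the 9 PRC1 subunit genes (red) and other PRC1-related genes by list (blue), 1 point per gene. The grey line is the median of protein-coding genes (-0.17), the grey bands hold their 25 to 75% and 5 to 95% ranges, and dotted lines mark 2-fold. *Cbx7* lies at 5.41, outside the wider band, which ends at 2.96, and *Cbx8* at -3.7 lies inside it.

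Promoters were examined because paralogs of a family differed in opposite directions. Promoters of 300 bases, from 250 before to 50 after the start site, were taken from RefSeq (GRCm38.p6) for 8 of the 9 genes, and each was found unchanged in NCBIM37. *Cbx2* had no entry. Shown are *Cbx7* and *Pcgf6*, the genes at least 2-fold higher in ES cells, beside *Cbx8* and *Bmi1*, paralogs at least 2-fold higher in forebrain. In GRCm38.p6 they lie at chr15:79932597-79932896 (minus strand), chr19:47050857-47051156 (minus), chr11:119040864-119041163 (minus) and chr2:18676768-18677067 (plus), respectively. Capitals mark the E-box CACGTG, the motif bound by MAX and its partners.

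Cbx7: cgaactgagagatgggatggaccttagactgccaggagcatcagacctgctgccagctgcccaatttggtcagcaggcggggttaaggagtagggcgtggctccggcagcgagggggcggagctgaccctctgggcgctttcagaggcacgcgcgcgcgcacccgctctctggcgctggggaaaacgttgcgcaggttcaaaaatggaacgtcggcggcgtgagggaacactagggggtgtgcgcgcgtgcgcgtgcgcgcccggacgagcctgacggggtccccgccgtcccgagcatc

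Cbx8: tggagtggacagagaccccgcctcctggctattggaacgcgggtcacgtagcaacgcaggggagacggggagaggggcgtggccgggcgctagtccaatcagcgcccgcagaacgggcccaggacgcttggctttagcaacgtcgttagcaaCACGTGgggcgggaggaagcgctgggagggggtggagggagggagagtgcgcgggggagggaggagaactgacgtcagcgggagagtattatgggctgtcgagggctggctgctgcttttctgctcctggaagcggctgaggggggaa

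Pcgf6: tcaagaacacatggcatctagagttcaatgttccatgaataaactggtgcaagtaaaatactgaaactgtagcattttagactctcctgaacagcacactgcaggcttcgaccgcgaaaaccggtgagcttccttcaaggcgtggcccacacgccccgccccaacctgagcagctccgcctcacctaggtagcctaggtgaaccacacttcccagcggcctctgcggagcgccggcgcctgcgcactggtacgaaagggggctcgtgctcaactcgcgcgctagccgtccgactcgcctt

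Bmi1: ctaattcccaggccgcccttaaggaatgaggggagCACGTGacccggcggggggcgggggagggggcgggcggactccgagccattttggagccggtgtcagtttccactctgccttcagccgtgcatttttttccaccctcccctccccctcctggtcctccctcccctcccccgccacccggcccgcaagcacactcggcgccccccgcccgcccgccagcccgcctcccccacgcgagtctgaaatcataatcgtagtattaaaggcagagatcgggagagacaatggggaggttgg

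The E-box was searched together with the octamer ATGCAAAT, the E2F motif GGCGGGAA and the GC box GGGCGG, on both strands. The E-box reads the same on both strands, and the E2F motif and GC box can overlap. An E-box was present in 4 of the 8 promoters, those of *Cbx8* (at -98 from the start site), *Bmi1* (-215), *Pcgf2* (-137) and *Cbx6* (-26), compared with 7.15% of all 32851 promoters and 10.9% of the 14281 with at least 10 CpG. It was absent from those of *Cbx7*, *Pcgf6*, *Ring1* and *Rnf2*. Of the genes at least 2-fold higher in forebrain, *Cbx8* and *Bmi1* had it and *Ring1* did not. *Cbx7* and *Pcgf6*, at least 2-fold higher in ES cells, lacked it, and *Cbx6*, 1.55-fold higher in ES cells, had it. Whether the E-box bears on these differences was not tested. The GC box was present in all 8, compared with 35.7% of all promoters and 69.8% of those with at least 10 CpG. The octamer and E2F motif were present in none (1.74% and 2.19% of all promoters, 1.13% and 4.43% of those with at least 10 CpG). The promoters held 10 to 37 CpG, with a median of 27 compared with 7 over all promoters. The start site in that of *Cbx7* lies 38473 bp downstream of the annotated gene start, within the gene.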

How the data were processed

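The 2 libraries, from ES cells and E10.5 forebrain, were made from total RNA after rRNA depletion, with a protocol that keeps strand. The authors mapped reads to NCBIM37 (mm9) with the HTSstation pipeline (Bowtie 0.12.7 in the submitters' processing notes) and deposited 1 value per gene, which they call RPKM. The annotation used here was GENCODE M1 of the same build, in which all 29311 genes had the same position.

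RPKM times exonic kb fell on multiples of 1.2209 in ES cells and 0.8191 in forebrain (genes up to 2500 bp of exon; 59.8% of 6560 and 61.4% of 6970 low values within 0.05 of a whole multiple). The product of both steps was 1, and the median log2 ratio of the 24344 genes above 0 in both samples was 0.00001, so the values carry a scaling between samples that is not by the depth of each. Values at fractions of a step also occur, as when reads with several positions are split. Reads per gene were inferred from the step and rounded. The inference was tested on simulated libraries of whole reads. These hold no split reads, so the test does not cover genes with such values.

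Ratios used log2(RPKM + 1), and 2-fold on this scale was called. Shares used RPKM. The counting SD of a share was propagated from the inferred reads. With 1 sample per cell type no test between samples was made. The 9 genes and the lists were chosen with earlier results of these data known. The named genes are the 9, the other Pcgf genes, the polyhomeotic genes, the largest difference of each other list, overlapping genes, and the 3 protein-coding genes nearest in both samples to the most different gene in each direction. *Gm5946*, the other Scm and Sfmbt genes, partners of PCGF6, *Rybp*, *Yaf2* and the remaining genes of short lists were named after their values were seen. So were genes beside *Cbx6*, *Cbx7*, *Bmi1*, *Pcgf2* and *Ring1*. An item of the planned lists, and the alternative that used it, are not reported here.

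Copies were sought with blastn 2.17.0 against NCBIM37 (at least 95% identity over 100 bp). Of the 9 transcripts, *Bmi1* alone had such a copy. In *Pcgf6*, 0.719% of 50-base words occurred in other transcripts. The read length is 50 bp in the methods of the paper and 100 bp in the labels. Longer reads would share less between genes than words of 50 bases do. Scripts ran in Python 3.11.15 with pandas 2.3.3, scipy 1.17.1, numpy 2.4.6 and, for plots, matplotlib 3.10.9. Intervals cover counting error only. The pseudocount, the scaling, the fold and the genes in each sum were varied.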

Additional observations from a re-analysis of the deposited data

How the results depend on the processing

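Of 133 alternatives, 91 left the value within its counting interval, or within 1.5 times for a count or percentage, and none reversed a gene that was 2-fold apart. The number of genes at least 2-fold higher in ES cells went from 2 to 1 with a 4-fold limit and to 1 after scaling to an equal sum of RPKM, and was 3 with a 1.5-fold limit or with division by the median of protein-coding genes. With inferred reads in place of RPKM, which gives longer genes more weight, the share of *Cbx7* in ES cells was 50.5%, that of *Cbx2* in forebrain 69.8% and that of *Pcgf6* in ES cells 74%. With all Pcgf genes in the sum, *Pcgf6* in ES cells held 44.6% and *Bmi1* in forebrain 23%. With the reads of *Gm5946* added to *Bmi1*, chosen after seeing the data, *Pcgf6* in ES cells held 67.7% and *Bmi1* in forebrain 56.9%. Of 55 alternatives for single genes, 20 moved the log2 ratio past its counting interval, each of them a scaling, which shifts all genes alike and by most (0.63) with division by the median of protein-coding genes. Of 32 alternatives for the other shares, 13 moved them. The background percentages stayed within 1.5 times in all alternatives, of which equal totals was chosen after seeing the data. No paired analysis was possible because each cell type has 1 sample. Depth limits *Cbx8* in ES cells (41 reads) and *Cbx7* in forebrain (107 reads) most.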

Other observations

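The HP1 genes *Cbx1*, *Cbx3* and *Cbx5* encode chromodomain proteins that bind another mark, H3K9 methylation, and none of the 3 was 2-fold apart. *Cbx5* had 3914.45 in ES cells and 7040.59 in forebrain, *Cbx1* had 1639.42 and 2266.61, and *Cbx3* had 241.68 and 327.84. Of 6 genes of H2A deubiquitination, which removes the ubiquitin that PRC1 attaches, 4 were within 2-fold. Another 1 was at least 2-fold higher in ES cells and 1 in forebrain, beside 18.9% and 27.9% of protein-coding genes. *Bap1*, the catalytic subunit, had 1427.51 and 1735.22, and *Usp16*, another H2A deubiquitinase, had 347.91 and 357.03. The partners of BAP1 differed more, as *Asxl2* was 2.62-fold higher in ES cells (245.65 and 93.7) and *Asxl3* 17.9-fold higher in forebrain (5.78 and 103.7), while *Asxl1* had 698.5 and 703.79.

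Within 250 kb of *Cbx6* and *Cbx7*, 4 of 16 other protein-coding genes listed were at least 2-fold higher in ES cells and 4 in forebrain (median -0.52). Of all protein-coding genes, 18.9% were so in ES cells and 27.9% in forebrain. *Apobec3*, between the pair, had 1247.23 in ES cells and 110.93 in forebrain. Upstream of *Bmi1* on the same strand, with a gap of 786 bp, *Commd3* had 493.32 in ES cells and 1005.93 in forebrain.

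Over the 2 samples, the protein-coding genes nearest to *Cbx7* in both values were *Dact2* (907.82 in ES cells and 26.25 in forebrain), *1700064H15Rik* and *Gtsf1l*, at distances of 0.25 to 0.43 on log2(RPKM + 1). Those nearest to *Cbx8* were *Copz2* (14.1 and 182.89), *1300014I06Rik* and *Cntfr*, at 0.06 to 0.08. With 2 samples this measure compares 2 levels and no pattern across conditions.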
